A study of Mus musculus with 2 samples.

Results

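The genes described here are 8 chemokine genes, Cxcl1, Cxcl5, Cxcl10, Cxcl12, Ccl2, Ccl7, Ccl5 and Ccl20, taken by symbol from a table of 46983 genes. They were selected on the count ratios of the same 2 libraries compared here, so every value below is a description. The table held RNA sequencing counts of 2 libraries of total RNA from mouse embryonic stem cells of the line 46C, which has a green fluorescent reporter at Sox1. In one library the cells expressed a short hairpin RNA (shRNA) directed at linc1557, a long intergenic noncoding RNA (linc1557 knockdown, 26693282 counts). In the other they expressed a control shRNA (23146210 counts). Both were made from stably infected clones selected with puromycin after viral infection with a pLKO.1-TRC vector, and how many clones were used is not given. The cells had been kept on feeders in serum with leukaemia inhibitory factor, so RNA of feeder cells can be present in either library. With 1 library per group there was no replicate check and no p-value, and intervals in brackets are 95% counting intervals. No row was matched to linc1557, so the level of the target was not analysed here and the libraries are named as labelled.

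Chemokines are small secreted proteins that bind G-protein-coupled receptors and steer the movement of leukocytes and of some embryonic and stem cells. They are sorted by the spacing of their first pair of cysteines, which stand side by side in CC chemokines and have another residue between them in CXC chemokines. Fibroblasts, macrophages and stressed cells make many of them on stimulation by cytokines, through the transcription factor NF-kB or in response to interferon, whereas Cxcl12 is made without such a stimulus by stromal cells.

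The stretch around that cysteine pair is shown for each of the 8 genes because it is what divides them into the CXC and CC classes used below. The sequences were read from the coding part of GENCODE M21 transcripts (GRCm38), 5' to 3' on the coding strand, with the 2 cysteine codons in capitals.
Cxcl1: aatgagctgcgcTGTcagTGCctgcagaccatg
Cxcl5: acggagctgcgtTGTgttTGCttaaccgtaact
Cxcl10: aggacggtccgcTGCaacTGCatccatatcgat
Cxcl12: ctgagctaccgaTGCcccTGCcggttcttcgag
Ccl2: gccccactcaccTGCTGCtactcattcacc
Ccl7: aatgcatccacaTGCTGCtatgtcaagaaa
Ccl5: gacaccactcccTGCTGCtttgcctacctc
Ccl20: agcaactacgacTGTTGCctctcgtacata
In Cxcl1 and Cxcl5 the 3 codons just before the pair encode glutamate, leucine and arginine, the signature of chemokines that attract neutrophils. In Cxcl10 and Cxcl12 the same place does not encode that signature.

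In GRCm38 coordinates, Cxcl5 (ENSMUSG00000029371) lies on chromosome 5 from 90759360 to 90761624, Cxcl1 (ENSMUSG00000029380) from 90891241 to 90893115, and Cxcl10 (ENSMUSG00000034855) from 92346638 to 92348889. Cxcl12 (ENSMUSG00000061353) lies on chromosome 6 from 117168535 to 117181367. Ccl2 (ENSMUSG00000035385) lies on chromosome 11 from 82035571 to 82037453, Ccl7 (ENSMUSG00000035373) from 82045712 to 82047525, and Ccl5 (ENSMUSG00000035042) from 83525778 to 83530518. Ccl20 (ENSMUSG00000026166) lies on chromosome 1 from 83116766 to 83119167. All 8 are protein-coding, and counts are summed over exons without separating transcript forms. The exons of Cxcl10 overlap those of Art3 on the opposite strand by 133 bases, and Art3 had 4 counts in knockdown cells and 6 in control cells. No other member shared exon bases with another gene. In 50-base words, Cxcl5 shared 0.693% of its transcript sequence with other genes and the other 7 shared none.

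Cxcl1, Cxcl5 and Cxcl10 were higher in the knockdown library by 6.92-fold, 8.76-fold and 11.6-fold, and Cxcl12 was lower by 3.58-fold. The monocyte attractants Ccl2 and Ccl7, the most abundant of the 8 per kilobase of exon, differed by less than 2-fold. Ccl5 and Ccl20 were near the limit of detection in both libraries. A gene was called when its ratio of TMM-scaled counts, knockdown over control, was at least 2-fold and its interval excluded 1, and it entered when it reached 1 CPM (the count scaled to library size) in either library. Of 15850 genes that entered, 4.68% were called higher and 9.48% lower, and the median log2 ratio was 0.02. Among the members, 6 entered, of which 3 were called higher, 1 lower and 2 were not called. Cxcl5 and Cxcl10 entered through the knockdown library only, so they had to be higher there, and the counts of called members carry no support of their own.

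**Figure D1:**
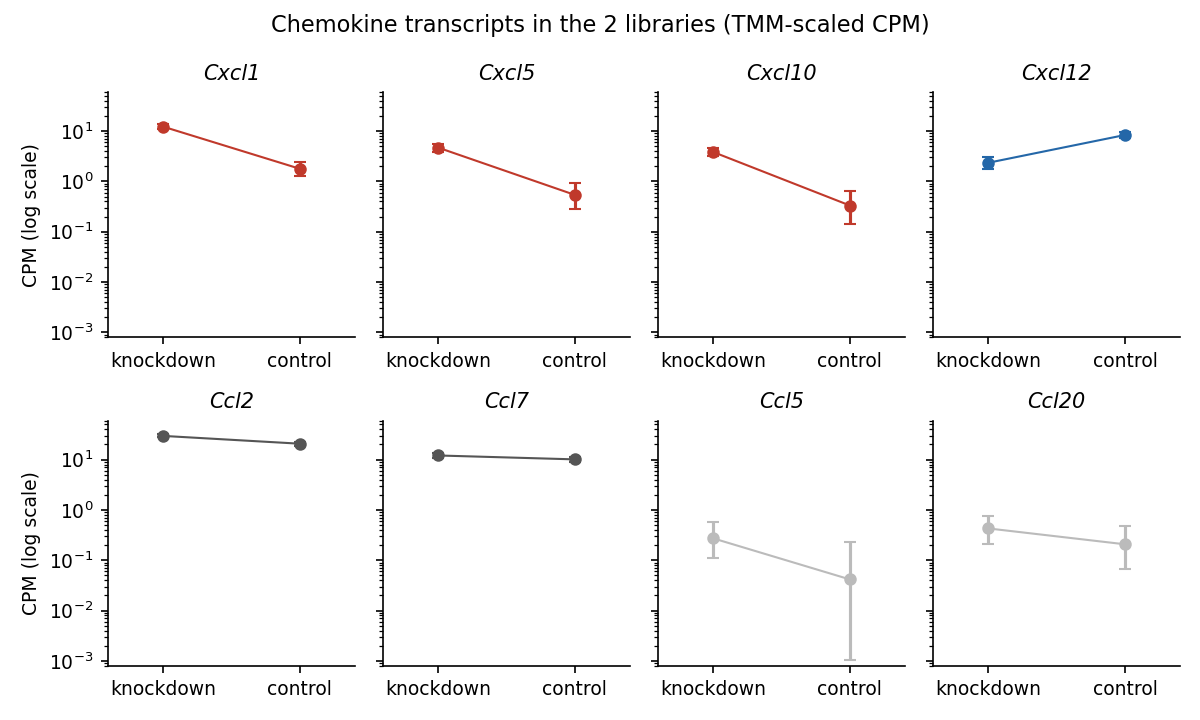
TMM-scaled CPM on a log scale for each of the 8 genes in the knockdown library (left point) and the control library (right point), with 95% counting intervals; red marks a call on the higher side, blue on the lower side, dark grey no call and light grey genes under 1 CPM in both. Cxcl1, Cxcl5 and Cxcl10 sit at 12.3, 4.72 and 3.86 CPM in the knockdown library, against 1.78, 0.539 and 0.332 CPM in the control library, and Cxcl12 slopes the other way.

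Cxcl1 and Cxcl5 encode ligands of Cxcr2, the receptor by which neutrophils are recruited. Cxcl1 had 316 counts in knockdown cells and 43 in control cells, or 12.3 CPM (11.0 to 13.8) in knockdown against 1.78 CPM (1.29 to 2.40) in control cells. Its log2 ratio was 2.79 (2.33 to 3.29), above that of 99.6% of the entered genes. Cxcl5 had 121 counts in knockdown cells and 13 in control cells, or 4.72 CPM (3.92 to 5.64) in knockdown against 0.539 CPM (0.287 to 0.922) in control cells. The counting intervals of the 2 libraries lay far apart for both genes. The log2 ratio of Cxcl5 was 3.13 (2.30 to 4.08). Cxcr2 itself had 0 counts in either library, with exact upper limits of 0.144 CPM in the knockdown and 0.153 CPM in the control library.

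Cxcl10 encodes an interferon-induced ligand of Cxcr3, a receptor of activated T cells and natural killer cells. It had 99 counts in knockdown cells and 8 in control cells, or 3.86 CPM (3.14 to 4.70) in knockdown against 0.332 CPM (0.143 to 0.654) in control cells. The ratio was 11.6-fold (5.69 to 27.7), with a log2 ratio of 3.54, the highest of the 8. Cxcr3 had 0 counts in both libraries.

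Cxcl12 encodes the homeostatic chemokine that retains blood stem cells in their niche and guides primordial germ cells, through Cxcr4 and the scavenging receptor Ackr3. It had 60 counts in knockdown cells and 202 in control cells, or 2.34 CPM (1.79 to 3.01) in knockdown against 8.38 CPM (7.26 to 9.61) in control cells. It was 3.58-fold lower in the knockdown library (2.67 to 4.85), a log2 ratio of -1.84, below which lay 3.06% of the entered genes. Both receptors were lower as well. Cxcr4 had 37 counts in knockdown cells and 196 in control cells and was 5.63-fold lower (3.94 to 8.23). Ackr3 had 27 counts in knockdown and 66 in control cells and was 2.60-fold lower (1.64 to 4.23). Ligand and receptors of this axis thus shared a direction opposite to that of Cxcl1, Cxcl5 and Cxcl10.

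Ccl2 and Ccl7 encode attractants of monocytes that act through Ccr2. Ccl2 had 760 counts in knockdown cells and 500 in control cells, or 29.7 CPM (27.6 to 31.8) in knockdown against 20.7 CPM (19.0 to 22.6) in control cells. The ratio was 1.43-fold (1.28 to 1.60), under the 2-fold threshold although its counting interval excluded 1. Ccl7 had 310 counts in knockdown cells and 244 in control cells, or 12.1 CPM (10.8 to 13.5) in knockdown against 10.1 CPM (8.89 to 11.5) in control cells. Its ratio was 1.20-fold (1.01 to 1.42). Neither was called. Their shared receptor Ccr2 had 0 counts in knockdown cells and 1 in control cells.

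Ccl5, which attracts T cells and monocytes through receptors that include Ccr1 and Ccr3, had 7 counts in knockdown cells and 1 in control cells. The ratio of 6.59-fold had an interval from 0.846 to 297, so a difference was not detectable at this depth. Ccl20, the ligand of Ccr6, had 11 counts in knockdown cells and 5 in control cells, with a ratio of 2.07-fold (0.663 to 7.60). Both genes were below 1 CPM in either library and did not enter. Their receptors were scarce too. Ccr1 had 2 counts in knockdown cells and 17 in control cells. Ccr3 and Ccr6 each had 1 in knockdown and 0 in control cells.

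Per kilobase of exon, the 8 genes differed widely in level. In the knockdown library Ccl2 was at 26.1 FPKM (CPM per kilobase of exon, 24.2 to 28.0) and Ccl7 at 15.1 (13.5 to 16.9), followed by Cxcl1 at 6.58, Cxcl5 at 2.54 and Cxcl10 at 1.72. Each of these stood apart from the next by its counting interval. Ccl20, Cxcl12 and Ccl5, at 0.302, 0.286 and 0.285 FPKM, could not be ordered. In the control library Ccl2 (18.2 FPKM) and Ccl7 (12.6) led again, and Cxcl12 (1.02) and Cxcl1 (0.951) came next with overlapping intervals. Cxcl5 at 0.289, Cxcl10 at 0.147, Ccl20 at 0.146 and Ccl5 at 0.0432 FPKM each overlapped the next in that order. Cxcl1 lay at percentile 61.2 of all entered genes in level per length in the knockdown library and at 18.0 in the control library, and Cxcl12 at 6.23 in knockdown and 19.4 in control cells.

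**Figure D2:**
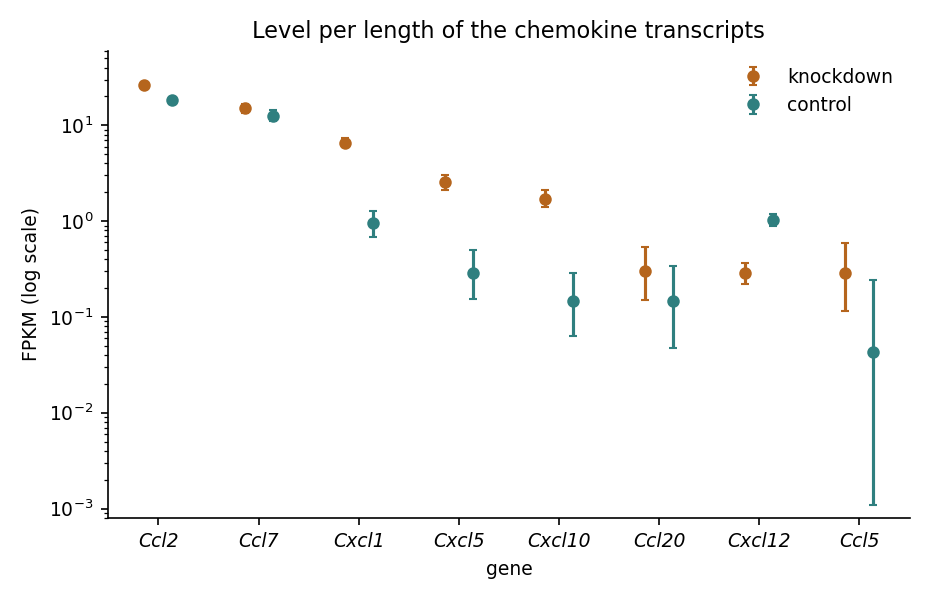
Level per length (FPKM, log scale) of the 8 genes, ordered by their level in the knockdown library (brown) with the control library beside it (green); bars are 95% counting intervals. Ccl2 and Ccl7 lead in both libraries, while Cxcl12, at 0.286 FPKM in the knockdown library, stands next after Ccl7 in the control library at 1.02 FPKM.

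The makeup of the reads of these 8 genes, which were selected on their ratios, differed accordingly. Ccl2 and Ccl7 took 63.5% (61.2 to 65.8, exact binomial) of the 1684 counts of the 8 genes in the knockdown library, against 73.2% (70.4 to 75.9) of 1016 counts in the control library. Cxcl1, Cxcl5 and Cxcl10 took 31.8% (29.6 to 34.1) in the knockdown library, against 6.30% (4.88 to 7.97) in the control library. Cxcl12 took 3.56% (2.73 to 4.56) in the knockdown library, against 19.9% (17.5 to 22.5) in the control library. In the wider list of ligands read below, Ccl2 and Ccl7 took 47.5% (45.4 to 49.6) of 2253 counts in the knockdown library. In the control library Ccl2 and Ccl7 took 47.3% (44.8 to 49.8) of 1574 counts, so their share of that pool barely differed. Cxcl1, Cxcl5 and Cxcl10 took 23.8% of it in knockdown and 4.07% in control cells, and Cxcl12 2.66% and 12.8%. Summed over the 8 genes, the level was 65.7 CPM (62.6 to 68.9) in the knockdown and 42.1 CPM (39.6 to 44.8) in the control library.

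The wider family was read from a list of 41 chemokine ligands, of which 40 were in the table and 8 had 0 counts in both libraries. Over all ligands the summed level was 87.9 CPM (84.3 to 91.6) in the knockdown and 65.3 CPM (62.1 to 68.6) in the control library. That sum includes the 8 members, which were selected on their ratios. Without them the level was 22.2 CPM (20.4 to 24.1) in the knockdown and 23.1 CPM (21.3 to 25.1) in the control library. Of the 33 ligands that are not members, 10 entered, of which 4 were called higher and 1 lower, with a median log2 ratio of 0.18 against 0.02 over all genes that entered. The 4 higher ones entered through the knockdown library only, and the lower one through the control library only. Cxcl2, another Cxcr2 ligand, was 2.15-fold higher (1.12 to 4.36), with 32 counts in knockdown and 14 in control cells. Cxcl11, named for a second interferon-induced Cxcr3 ligand, was 5.24-fold higher (2.32 to 13.9), with 39 counts in knockdown and 7 in control cells. The annotation lists Cxcl11 as a polymorphic pseudogene, so its reads need not stand for a working ligand. Ccl3 and Ccl9, inflammatory chemokines of macrophages that bind Ccr1, had 28 and 35 counts in knockdown cells, against 6 and 12 in control cells. Their log2 ratios were 2.14 and 1.46. The lower gene was Cxcl14, a chemokine of fibroblasts and epithelia, with 22 counts in knockdown and 112 in control cells and a log2 ratio of -2.44. Cxcl2 and Cxcl3 share 5.84% and 4.24% of their 50-base words with other genes, mainly with each other, so their split of reads is less certain.

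Most chemokine genes lie in clusters, and the ratios can be read along them. In the chromosome 5 cluster from 90759360 to 90905938, which holds Cxcl5, Ppbp, Pf4, Cxcl3, Cxcl15, Cxcl1 and Cxcl2, the 3 genes that entered were all called higher. Of these, Cxcl5 and Cxcl2 entered through the knockdown library only, so the filter set their direction. Cxcl1 and Cxcl5, selected on their ratios, gave 316 and 121 of the 486 counts of this cluster in knockdown cells. In the same cluster the platelet chemokines Ppbp and Pf4 each had 3 counts in knockdown cells and 8 in control cells, and Cxcl15 had none. Cxcl9, Cxcl10 and Cxcl11 lie together from 92321347 to 92365485, with 148 counts in knockdown cells and 15 in control cells. On chromosome 11, the cluster of Ccl2, Ccl7, Ccl11, Ccl12, Ccl8 and Ccl1 (82035571 to 82305690) had 3 genes that entered and none called. In it Ccl11, which attracts eosinophils, had a log2 ratio of -0.56 (36 counts in knockdown and 50 in control cells). The cluster of Ccl5, Ccl9, Ccl6, Ccl3 and Ccl4 (83525778 to 83664683) had 87 counts in knockdown cells and 23 in control cells. All 5 genes had a higher CPM in the knockdown library, with limits. Ccl6, with 3 counts in knockdown and 2 in control cells, was too low for a ratio. Ccl5 and Ccl4 were under 1 CPM in both libraries. Ccl3 and Ccl9 entered through the knockdown library only, so the filter set their direction. Summed counts were 486 in knockdown and 88 in control cells for the Cxcl1 cluster. For the Ccl2 cluster they were 1130 in knockdown and 808 in control cells, the smallest difference in proportion of these 4. Each of the 4 sums includes members selected on their ratios, so their order is a description.

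**Figure D3:**
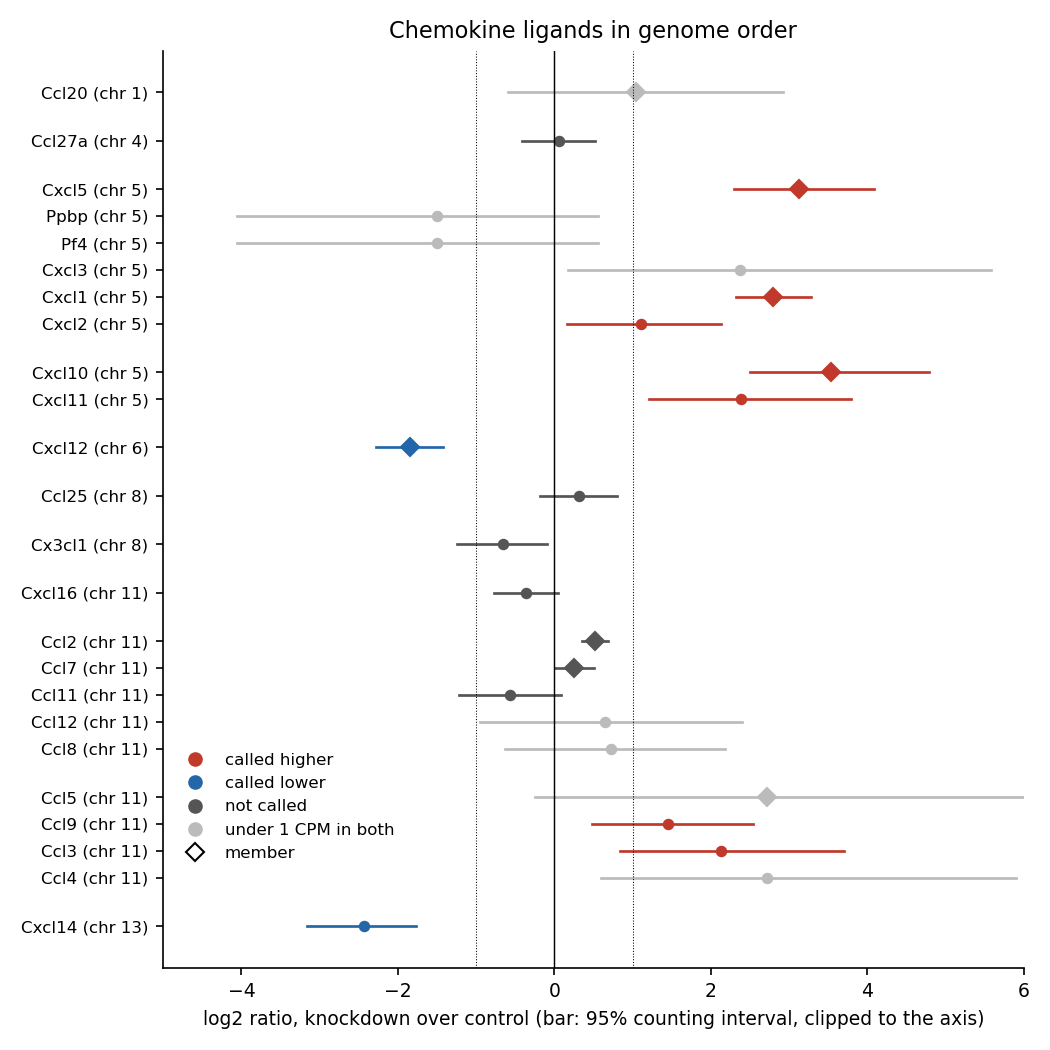
Log2 ratios, knockdown over control, of the 24 chemokine ligands with reads above the floor in either library and none at 0, in genome order with gaps between clusters; diamonds are the 8 genes described here, circles other ligands, and bars 95% counting intervals clipped to the axis. Cxcl5, Cxcl1, Cxcl10 and Cxcl11 lie right of the dotted 2-fold line at 1, Ccl2 and Ccl7 lie between the dotted lines, and Cxcl12 and Cxcl14 lie left of -1.

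Promoters are shown for 3 genes, Cxcl1 and Cxcl10 as higher genes and Cxcl12 as the lower one. Of the 8 genes, 4 had an entry in the RefSeq promoter table (GRCm38.p6), namely Cxcl1, Cxcl10, Cxcl12 and Ccl20. The 250 bases before the start were searched on both strands for the kappaB consensus, for GAAANNGAAA (a core of interferon-stimulated response elements), for TTCNNNGAA (a STAT site) and for TGANTCA (an AP-1 site). Among 32851 promoters in the table, these were present in 7.25%, 2.98%, 7.02% and 6.75%. Each sequence runs 5' to 3' on the gene's strand with matches in capitals, for Cxcl1 chr5:90890995-90891244 (plus strand), for Cxcl10 chr5:92348890-92349139 (minus strand) and for Cxcl12 chr6:117168285-117168534 (plus strand).
Cxcl1: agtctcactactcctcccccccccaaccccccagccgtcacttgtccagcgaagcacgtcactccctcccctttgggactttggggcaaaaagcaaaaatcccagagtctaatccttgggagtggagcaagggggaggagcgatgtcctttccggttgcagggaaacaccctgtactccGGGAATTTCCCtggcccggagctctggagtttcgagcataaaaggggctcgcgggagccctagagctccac
Cxcl10: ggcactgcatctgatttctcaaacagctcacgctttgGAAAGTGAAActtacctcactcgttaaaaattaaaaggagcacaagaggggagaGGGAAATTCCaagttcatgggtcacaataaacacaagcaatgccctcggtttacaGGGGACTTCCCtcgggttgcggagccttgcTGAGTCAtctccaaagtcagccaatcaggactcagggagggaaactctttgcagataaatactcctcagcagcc
Cxcl12: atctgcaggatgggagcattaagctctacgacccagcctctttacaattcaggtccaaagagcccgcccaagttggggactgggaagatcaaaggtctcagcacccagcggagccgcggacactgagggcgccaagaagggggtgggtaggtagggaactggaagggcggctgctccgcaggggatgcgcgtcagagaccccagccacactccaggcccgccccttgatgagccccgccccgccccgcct
The Cxcl1 promoter held 2 overlapping kappaB matches, 1 per strand, in one run of capitals from -71 to -61. The Cxcl10 promoter held 3 kappaB matches, 2 of them overlapping, a GAAANNGAAA match from -213 to -204 and a TGANTCA match from -74 to -68. Ccl20 had 1 kappaB match. None of the 4 motifs matched in these 250 bases of Cxcl12, and TTCNNNGAA matched in none of the 4 promoters. Among other ligands, Cxcl2, Cxcl3 and Ccl1 each held 2 kappaB matches and Ccl9 held 1, and Ccl1 had 0 counts in both libraries. Cxcl14, called lower, held a GAAANNGAAA match from -172 to -163 and a TTCNNNGAA match from -191 to -183. Ccl3, called higher, held a match to none of the 4 motifs. Presence of a match and direction of the ratio thus did not always go together. A match is a description of the sequence, and binding was not measured.

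The receptors had few reads. Of 24 chemokine receptors, 4 entered, of which 3 were called lower and none higher, with Cx3cr1 entering through the control library only. These were Cxcr4, Ackr3 and Cx3cr1, the fractalkine receptor of monocytes and microglia, which had 8 counts in knockdown cells and 26 in control cells. Ccr4, a receptor of T helper cells, was not called (53 counts in knockdown and 31 in control cells). Summed over the list, the level was 6.09 CPM (5.17 to 7.12) in the knockdown and 15.8 CPM (14.3 to 17.5) in the control library.

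Pathways that can induce chemokines were read in lists of NF-kB pathway and feedback genes, inflammatory cytokines with their receptors, and interferon signalling genes. Of 22 NF-kB pathway and feedback genes that entered, none was called. Their median log2 ratio was 0.12, with a range from -0.82 (Nfkb2, a subunit of the factor) to 0.76 (Bcl3, a nuclear regulator of it). By counts summed over both libraries the most abundant were Chuk, an IkB kinase subunit, with a log2 ratio of 0.73, and Birc2, a ubiquitin ligase of the pathway, at 0.66. Of 16 cytokine and receptor genes, 2 were higher and none lower, with a median of 0.11. Both higher genes entered through the knockdown library only, so their direction was set by the filter. Il1b, the inflammatory cytokine interleukin 1 beta, was 11.0-fold higher (3.46 to 55.8), with 35 counts in knockdown and 3 in control cells, and Il6 was 3.76-fold higher (1.61 to 10.2), with 28 counts in knockdown and 7 in control cells.

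Of 17 interferon signalling genes, 4 were higher and 1 was lower, with a median of 0.09. Of the 4 higher genes, 2, Irf5 and Irf7, entered through the knockdown library only. Usp18, a feedback inhibitor of the interferon receptor, was 4.64-fold higher (3.07 to 7.24), and Irf7, the amplifier of type I interferon, 4.0-fold (2.54 to 6.53). Irf1, a factor induced by interferon gamma, was 2.30-fold lower (2.02 to 2.62), with 347 counts in knockdown cells and 752 in control cells. The genes for interferon beta and interferon gamma, Ifnb1 and Ifng, had 0 counts in both libraries.

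Markers of cells that make chemokines moved between the libraries too. Of 30 feeder fibroblast markers, 19 were lower, none was higher, and 29 had a lower CPM in the knockdown library. Their median log2 ratio was -1.25 and their summed level 2182 CPM in the knockdown against 4197 CPM in the control library, with no marker at 0 in either. Timp3, Col6a3, Col3a1 and Col6a2, genes of the extracellular matrix, were 6.34-fold, 5.41-fold, 4.48-fold and 4.40-fold lower. Cxcl12 and Cxcl14 had the direction of these markers, whereas Ccl2 and Ccl7, which fibroblasts also make, did not. In bulk RNA, fewer cells of a type and less RNA per cell cannot be told apart, and the part of feeder RNA in the chemokine ratios was not tested.

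Of 20 macrophage markers, 14 entered, of which 8 were lower and 1 was higher. Of the 8 lower genes, 5 (Ptprc, Csf1r, C1qa, C1qb and Mrc1) entered through the control library only, and the higher gene entered through the knockdown library only, so the filter set their direction. Lyz2, C1qc and Mpeg1 were called lower with at least 1 CPM in both libraries. They had 272, 34 and 30 counts in knockdown cells, against 539, 90 and 66 in control cells. The median log2 ratio of -1.10 came to -0.0028 over the 5 markers that reached 5 CPM. These were Mrc1 (-3.41), Lyz2 (-1.07), Laptm5 (-0.0028), Cd68 (0.22) and Marco (5.40), so that median is the value of Laptm5 alone. The summed level was 55.7 CPM in the knockdown and 80.7 CPM in the control library. Mrc1, C1qb and Csf1r, a mannose receptor, a complement subunit and the receptor of the macrophage growth factor, were 10.6-fold, 4.91-fold and 4.89-fold lower. The 5 markers that entered without a call included Adgre1, the antigen F4/80, at 1.77-fold (1.21 to 2.63), with 81 counts in knockdown cells and 43 in control cells. Cd68 had 348 counts in knockdown and 281 in control cells, Laptm5 had 316 in knockdown and 298 in control cells, and Itgam had 34 in knockdown and 32 in control cells. Cybb, the last of these, had 22 counts in knockdown and 33 in control cells. The macrophage list thus held markers in both directions. Marco, a scavenger receptor of activated macrophages, went the other way with 135 counts in knockdown cells and 0 in control cells. With the 0 set to the floor of 3 counts, Marco was 42.4-fold higher, and its counting interval began at 14.2-fold with no upper limit. It was the only marker of the list at 0 in a library. The part of macrophage RNA in the chemokine ratios was not tested. None of 14 neutrophil and lymphocyte markers entered, and 5 of them, S100a9, Cd3d, Camp, Gzma and Ly6g, had 0 counts in both libraries. The most abundant were Cd79a, with 18 counts in knockdown cells and 14 in control cells, and Cd3e, with 10 counts in knockdown and 6 in control cells.

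Of 10 endothelial markers, 6 entered, with Esam higher (3.65-fold) and Vwf and Kdr lower (3.03-fold and 2.90-fold). Esam entered through the knockdown library only and Kdr through the control library only. The median log2 ratio was -0.73, and 7 of the 10 had a lower CPM in the knockdown library. The summed level was 74.1 CPM in the knockdown and 61.4 CPM in the control library, and without Pecam1, which embryonic stem cells also express, it was 17.6 CPM in the knockdown and 28.2 CPM in the control library. All 12 embryonic stem cell markers entered and none was called. They summed to 3160 CPM in the knockdown and 2695 CPM in the control library, and the most abundant by counts summed over both libraries, Tdgf1 and Esrrb, had log2 ratios of 0.85 and 0.51. The log2 ratios ran from -0.94 for Lin28a to that of Tdgf1, and 9 of the 12 had a higher CPM in the knockdown library. The labelled cell type was thus present by its markers in both libraries.

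**Figure D4:**
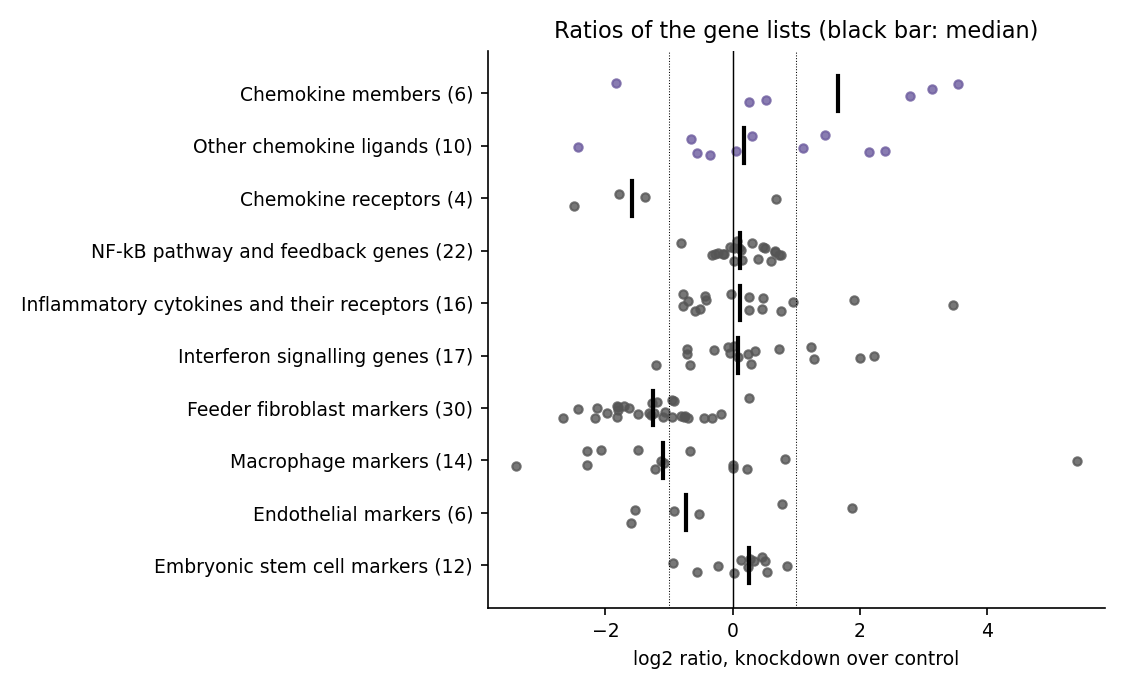
Log2 ratios, knockdown over control, of the genes that entered in each list (number in brackets), with black bars at the medians and dotted lines at 2-fold in either direction; vertical scatter has no meaning. Chemokine members spread from -1.84 to 3.54, feeder fibroblast markers centre on -1.25, and macrophage markers are scattered on both sides of 0 around a median of -1.10. The rightmost point is Marco, whose ratio was computed with its control count of 0 set to 3.

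With 2 libraries a likeness of pattern holds only 2 points. For Ccl2, the member with the most reads, the nearest protein-coding genes by Euclidean distance of log2 CPM in the 2 libraries were Ap4e1 (0.0104), Slc7a6os (0.0115) and Ahi1 (0.0246), with log2 ratios of 0.52, 0.52 and 0.54 against 0.52 for Ccl2.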

How the data were processed

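The authors deposited raw read counts per gene for each library, with a gene length column. Trim Galore, HISAT2, featureCounts and DESeq, without versions, and the builds mm10 and GRCm38 are named in the submitters' processing notes. Neither the annotation release nor the use of strand, nor how reads in overlapping or repeated sequence were counted, is stated there. GENCODE M21 (GRCm38) gave symbols for 46488 of 46983 identifiers, and its exon lengths equalled the deposited lengths for all 8 members. Members and lists were chosen with earlier results of these data known.

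TMM factors (0.960 for knockdown, 1.04 for control cells) came from edgeR 4.0.16 in R 4.3.3. DESeq2 1.42.0 gave alternative size factors. Python 3.11.15 was used for ratios (numpy 2.4.6, pandas 2.3.3, scipy 1.17.1) and figures (matplotlib 3.10.9). Ratios carry exact Clopper-Pearson intervals conditional on the 2 counts, levels exact Poisson intervals. Intervals and floors reflect counting error alone, because the counts carry no molecular identifiers. A count of 0 was set to 3, and no ratio was given where both counts were at most 3. CPM is relative to TMM-scaled library size, and FPKM is CPM per kilobase of deposited length.

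All 8 members are named, with every called ligand and receptor, the receptors that members bind, and for each other list up to 4 called genes with the largest change, or the 2 most abundant where none was called. Uncalled macrophage markers, Lyz2, C1qc, Mpeg1, genes at the ends of a range, Irf5, Pecam1 and further promoter matches were named after their values were seen. Some genes that this rule names are not reported here.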

Additional observations from a re-analysis of the deposited data

How the results depend on the processing

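The 8 log2 ratios were recomputed under 5 alternatives: total-count scaling, DESeq2 size factors, scaling by nuclear protein-coding genes, a prior count of 2, and thinning of the deeper knockdown library. All 40 values stayed within the counting intervals of the reported ones, with ranges of 2.67 to 2.83 for Cxcl1, 2.95 to 3.17 for Cxcl5, 3.26 to 3.58 for Cxcl10, -1.96 to -1.80 for Cxcl12, 0.40 to 0.56 for Ccl2, 0.14 to 0.30 for Ccl7, 0.82 to 1.09 for Ccl20 and 1.54 to 2.93 for Ccl5, the widest, whose lowest value came with the prior count. Total-count scaling shifted the median of all entered genes by -0.12. With a minimum of 5 CPM, 4 members entered and 1 was called higher in place of 3, since Cxcl5 and Cxcl10 no longer entered. Of the 11534 genes that entered at that minimum, 330 were called higher and 728 lower. At a 4-fold threshold 0 members were called lower, since Cxcl12 falls short of it. Of the 15850 genes that entered, 152 were then called higher and 389 lower. At 1.5-fold these were 1817 and 2598. With no filter Ccl5 and Ccl20 entered and were not called. With a minimum of 5 CPM the median log2 ratio was -0.0028 for macrophage markers (-1.10 at 1 CPM), 0.48 over 2 CXC ligands (1.75 at 1 CPM), 0.39 over 4 members (1.65 at 1 CPM) and -0.033 for cytokines and receptors, and none of the other ligands entered. With no filter the median of those other ligands was 0.65 in place of 0.18. Total-count scaling put the medians of cytokines and interferon genes at -0.011 and -0.031 and that of NF-kB genes at -0.00014. Over all settings the feeder median ran from -1.37 to -1.21 and the receptor median from -2.49 to -1.38. The receptor value of -2.49 came with a minimum of 5 CPM, where 1 receptor, Cxcr4, entered. No paired analysis was possible because each group has 1 library. Depth limits Ccl5, Ccl20 and most receptors, whose counts were under 20.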

Other observations

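Other inflammatory cytokine genes with reads in the knockdown library only fell below the entry level and were chosen here after their values were seen. Il1a, the gene of interleukin 1 alpha, had 17 counts in knockdown cells and 0 in control cells. With the 0 set to the floor of 3 counts, Il1a was 5.33-fold higher, and its counting interval began at 1.54-fold with no upper limit. Csf3 and Csf2, genes of growth factors for granulocytes and macrophages, had 7 and 5 counts in knockdown cells and 0 in control cells. Tnf, the gene of tumour necrosis factor, had 7 counts in knockdown cells and 8 in control cells. Cxcl9, the remaining gene of the Cxcl10 cluster, had 10 counts in knockdown cells and 0 in control cells.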
